A study of Mus musculus with 6 samples.

Results

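The 10 genes described here make, bind or break down hyaluronan, or encode lubricin: the synthase genes Has1, Has2 and Has3, the breakdown genes Cemip, Hyal1 and Hyal2, the receptor gene Cd44, the matrix genes Tnfaip6 and Vcan, and Prg4. They were chosen from the 23934 genes of the deposited table by symbol, with their knockout and control values already known, so their levels are given as a description and their p-values support nothing beyond it. RNA was sequenced from sorted mouse skin cells at day 50, in 3 control libraries called S2, S3 and S4, and in 3 Zfp750 knockout libraries called S5, S6 and S7, after their column names. Where 3 values are given for a group they stand in that order of libraries. Zfp750, named ZNF750 in the labels, encodes a zinc finger regulator of epidermal differentiation. The series title places its loss at the junctional zone of the hair follicle and the sebaceous gland. Each knockout sample is labelled ZNF750 fl/fl with Rosa26 -/-, and the recombinase allele is Lrig1-CreER +/- in 1 of them and Lrig1-CreERT2 +/- in 2. Of the controls, 1 is ZNF750 wt/fl with Rosa26 -/- and Lrig1-CreERT2 +/-, 1 is wt/wt with Rosa26 +/- and Lrig1-CreERT2 +/-, and 1 is wt/fl with Rosa26 -/- and Lrig1-CreER +/-. All groups thus carry a tamoxifen-inducible recombinase under Lrig1, a gene of the upper hair follicle, and all pups were given 4-hydroxytamoxifen on days 4 to 7 or days 5 to 8. The cells are described as tdTomato-expressing, but Rosa26, a usual reporter site, is -/- in 5 of the 6 samples. The labels do not state that the libraries come from different mice. The controls differ in labelled genotype, and sex-linked transcripts differed within each group, so each group came from more than 1 mouse. Whether every knockout library had its own mouse is not stated. The p-values therefore reflect only the scatter among these samples, part of which may be technical.

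Hyaluronan is an unbranched sugar polymer that fills the space between dermal cells and holds water there. Hyaluronan synthases at the plasma membrane make it from UDP-glucuronic acid and UDP-N-acetylglucosamine, hyaluronidases and the CEMIP proteins cut it, and CD44 binds it at the cell surface. Secreted proteins such as versican and the TNFAIP6 product anchor it in the matrix, and lubricin, the product of Prg4, is best known as a boundary lubricant of joints.

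The libraries held 15310161 to 20705441 estimated reads. Dermal fibroblast transcripts dominated them: the small proteoglycan gene Dcn ranged from 67603 to 236142 normalized counts, whereas the keratinocyte gene Krt5 ranged from 62.5 to 11805. Summed over lists of 7 and 9 markers, fibroblast transcripts were 149543 to 381450 and keratinocyte transcripts, which the follicle and gland of the series title would carry, 295 to 24884. Zfp750 was 41.9, 3.75 and 314 across the controls, against 4.90, 1.82 and 7.16 across the knockouts, so it did not check the label of S3. A normalized count is the number of estimated reads divided by a factor for each library and is not corrected for gene length. Group differences were tested with limma on log2 values with a pseudocount of 9.15 over 15935 genes, and a gene was called at a Benjamini-Hochberg adjusted p under 0.05.

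Cemip, Prg4 and Cd44 were higher in the knockout libraries, and no gene of the 10 was called lower. Their counts stand beside a background of 6.71% of all tested genes called, 4.12% higher and 2.59% lower, and since the genes were picked with these values in view nothing is read from the 3 of 10. The median log2 fold change of the 10 was 0.037, against 0.014 over all tested genes, and 5 of the 10 were positive. Rescaling the libraries to a common total moved the median of all tested genes up by 0.30, and 7 of the 10 were then positive, so directions of small differences hold only on the authors' scale. All 10 passed the filter on low values. Cemip and Prg4 passed it through the knockout libraries alone, because their control values lay below the filter of 1 per 1000000 of the library total, which is 15.4 to 25.9 normalized counts by library. The groups did not overlap for 4 of the 10, Cemip, Prg4, Cd44 and Hyal1, where 28.8% of all tested genes had non-overlapping groups.

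**Figure D1:**
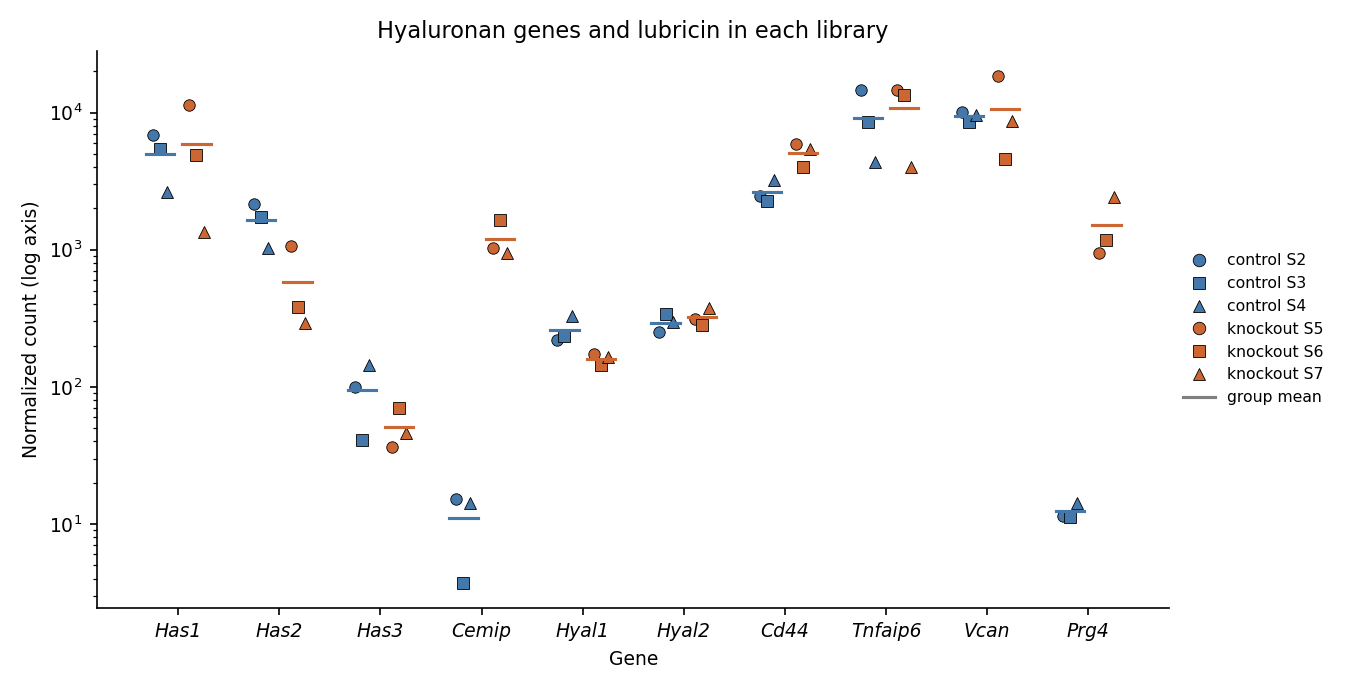
Normalized counts (log axis) of the 10 genes in each of the 6 libraries, controls in blue and knockouts in orange, with the mean of each group as a bar. Cemip and Prg4 lie at 15.2 or below in the controls and at 943 or above in the knockouts, and Has1, Tnfaip6 and Vcan overlap between the groups.

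The order of levels within each group was compared per kb of merged exon, using lengths from the GENCODE M21 annotation. In the controls Tnfaip6 was highest at 5349 ± 2992 normalized counts per kb (SD, n = 3), followed by Has1 at 1107 ± 480.4 and Vcan at 652 ± 59.2. Cd44 (390.0 ± 73.8) and Has2 (388 ± 136) came next, then Hyal2 (89.4 ± 13.2) and Hyal1 (69.2 ± 15.2). The 3 lowest were Has3 (14.9 ± 8.07), Prg4 (2.89 ± 0.395) and Cemip (0.907 ± 0.522). Of these neighbours, Has1 and Vcan, Cd44 and Has2, and Hyal2 and Hyal1 overlapped between libraries. In the knockouts Prg4 stood at rank 5 with 355 ± 188 per kb and Cemip at rank 7 with 98.6 ± 31.3, level with Hyal2 at 98.3 ± 14.7. Every neighbouring pair from Tnfaip6 down to Hyal2 overlapped between the knockout libraries, so that order is not resolved.

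**Figure D2:**
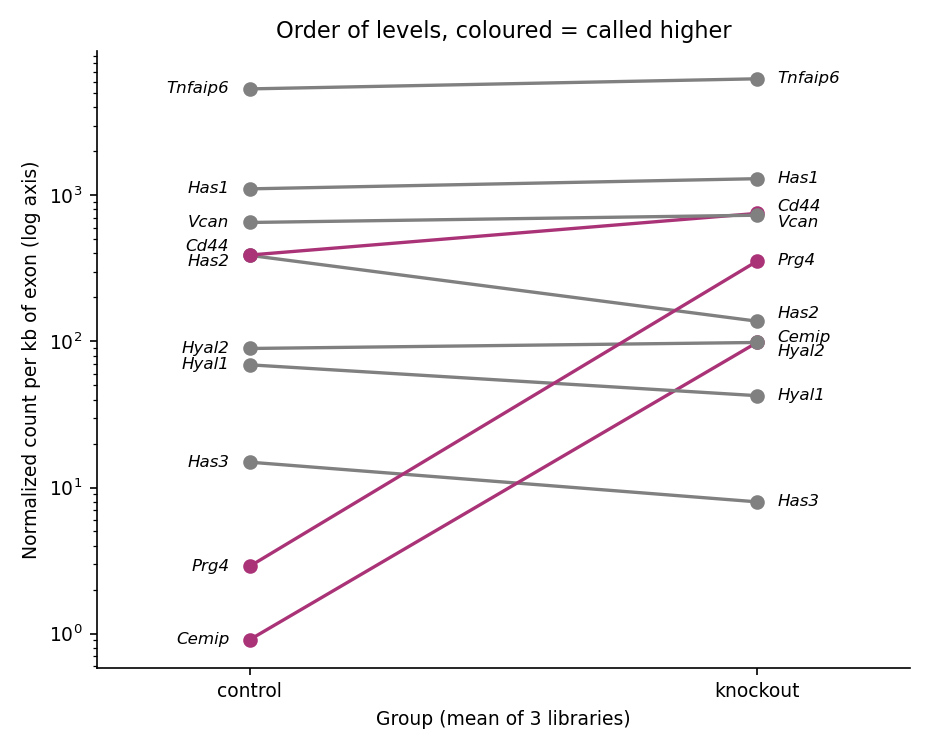
Mean normalized count per kb of merged exon (log axis) of each gene in the 3 control and the 3 knockout libraries, joined by a line that is coloured for the genes called higher. Prg4 moves from 2.89 to 355 and Cemip from 0.907 to 98.6, past Has3 and Hyal1, while Tnfaip6 and Has1 are the 2 highest in both groups.

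Among the synthase genes, none was called, but their proportions differed between the groups. Has1 (ENSMUSG00000003665, chromosome 17, 18063585 to 18075468 in the table's own coordinates) encodes a synthase that is low in many resting tissues. It was 6905, 5458 and 2637 across the controls, against 11368, 4898 and 1348 across the knockouts. The knockout libraries thus held both the highest and the lowest Has1 value, and the log2 fold change was -0.13 ± 0.73 (SE; limma adjusted p = 0.935), turning to 0.15 without S2, 0.69 without S7 and 0.19 with a common library total.

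Has2 (ENSMUSG00000022367, chromosome 15, 56529023 to 56557936) encodes the synthase needed for heart development in the embryo and the main one of many fibroblasts. It was 2169, 1741 and 1025 across the controls, against 1072, 384 and 291 across the knockouts. Knockout S5 lay just above control S4 and the other knockout libraries lay below all controls. The log2 fold change of -1.65 ± 0.49 did not pass the test (limma adjusted p = 0.0944). Without S5 it was -2.20 with an adjusted p of 0.0195, while without S2, S3, S4, S6 or S7 it was -1.28 to -1.96 with limma adjusted p-values of 0.282, 0.202, 0.0624, 0.249 and 0.243. Has2os, the antisense RNA whose span shares 4596 bases with Has2, was 72.4, 87.4 and 57.2 across the controls, against 35.3, 13.7 and 7.96 across the knockouts (log2 fold change -1.64 ± 0.40, limma adjusted p = 0.0560). A strand setting of the counting was not found among the labels, so reads of the pair cannot be told apart.

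Has3 (ENSMUSG00000031910, chromosome 8, 107596874 to 107611199), the synthase usually tied to epithelia, was low throughout. It was 100, 41.2 and 144 across the controls, against 36.3, 70.2 and 46.1 across the knockouts, with overlapping groups (log2 fold change -0.69 ± 0.44, limma adjusted p = 0.395). Control S3, which had the lowest Has3 of the controls, also had the lowest summed level of 9 keratinocyte markers, 295 against 5480 in S2 and 24884 in S4. The knockouts did not share this pairing. S6, with their highest Has3, had their lowest keratinocyte sum, 3206 against 3428 in S5 and 22993 in S7. The part of keratinocyte content in Has3 was not tested. Has3 shares 704 bases of its span with Chtf8 on the other strand.

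Per kb of exon, Has2 made up 24.9%, 25.3% and 28.5% of the summed synthase level across the controls, against 9.12%, 7.64% and 18.4% across the knockouts. Its mean share was 26.2% ± 1.99 for the controls against 11.7% ± 5.81 for the knockouts (SD, n = 3 each), and every knockout library lay below every control library. The Has1 share was higher in turn, at 72.5% ± 3.18 and 87.3% ± 6.56, and Has3 stayed at 2.66% or less in each library. A higher share is not a higher level. Over the control mean, Has1 was 2.27-fold, 0.98-fold and 0.27-fold in S5, S6 and S7, and Has2 was 0.65-fold, 0.23-fold and 0.18-fold. The ratio of Has1 to Has2 was 2.99, 2.94 and 2.41 across the controls, against 9.95, 12.0 and 4.34 across the knockouts. The summed level of the synthases did not separate the groups, at 1510.0 ± 612 and 1445 ± 1221 normalized counts per kb. No test is attached to these shares, because the same contrast was known when the genes were picked.

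**Figure D3:**
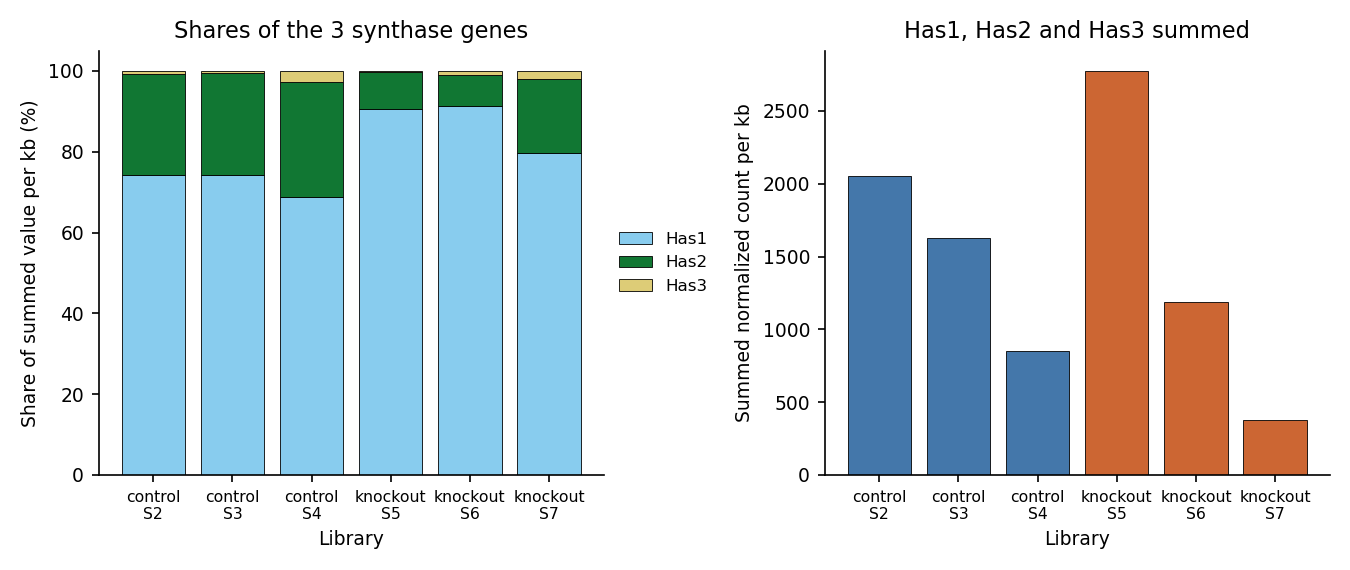
Left, shares (%) of Has1, Has2 and Has3 in their summed normalized count per kb in each library. Right, the summed level per kb, controls in blue and knockouts in orange. The Has2 share is 24.9% to 28.5% across controls and 7.64% to 18.4% across knockouts, while the summed level overlaps between the groups.

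Of the breakdown genes Cemip, near the detection limit in controls, rose, and Hyal1 and Hyal2 were not called. Cemip (ENSMUSG00000052353, chromosome 7, 83582065 to 83735711) encodes a secreted hyaluronan-binding protein through which fibroblasts cut hyaluronan. The controls held 15.2, 3.75 and 14.3, which are 12, 3 and 17 estimated reads. The exact 95% Poisson intervals of these values were 7.88 to 26.6, 0.773 to 10.95 and 8.33 to 22.9 normalized counts and cover counting error only. In S5, S6 and S7 it was 1021, 1647 and 952. Each knockout library was far above each control, and the means were 11.1 ± 6.38 and 1206 ± 383 (SD, n = 3 each), a 109-fold ratio. Over the control mean, S5, S6 and S7 were 92.0-fold, 148-fold and 85.7-fold, and without S6 the ratio of means was 88.9. With the pseudocount added, which shrinks the changes of low genes, the log2 fold change was 5.92 ± 0.33 (limma adjusted p = 0.000296). Set against the synthases per kb, Cemip stood at 0.606, 0.188 and 1.38 per 1000 across the controls, against 30.1, 114 and 208 per 1000 across the knockouts. S7, which had the lowest summed synthase level, had the highest of these ratios.

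Hyal1 (ENSMUSG00000010051, chromosome 9, 107454126 to 107458910), a lysosomal hyaluronidase gene, was 220, 237 and 327 across the controls, against 173, 144 and 165 across the knockouts. The groups did not overlap, but the log2 fold change of -0.66 ± 0.21 did not pass the test (limma adjusted p = 0.118). The span of Hyal1 shares 2824 bases with Naa80 and 893 with Hyal3 on the same strand, so its separate value is uncertain. Hyal2 (ENSMUSG00000010047, chromosome 9, 107445144 to 107449979) encodes a hyaluronidase anchored at the cell surface. It was 250, 337 and 296 across the controls, against 312, 283 and 377 across the knockouts, with overlapping groups and a log2 fold change of 0.13 ± 0.19 (limma adjusted p = 0.729).

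Promoters of Cemip and Cd44 are shown because these are the called genes of the 10 with an entry in the RefSeq promoter table, which matched 7 of the 10 by symbol. Each runs from 250 bases before to 50 after the annotated start on GRCm38.p6, 5′ to 3′ on the gene's strand, at chr7:84086456-84086755 on the minus strand for Cemip and chr2:102901616-102901915 on the minus strand for Cd44. Capitals mark matches to the 5 motifs searched on both strands.
Cemip: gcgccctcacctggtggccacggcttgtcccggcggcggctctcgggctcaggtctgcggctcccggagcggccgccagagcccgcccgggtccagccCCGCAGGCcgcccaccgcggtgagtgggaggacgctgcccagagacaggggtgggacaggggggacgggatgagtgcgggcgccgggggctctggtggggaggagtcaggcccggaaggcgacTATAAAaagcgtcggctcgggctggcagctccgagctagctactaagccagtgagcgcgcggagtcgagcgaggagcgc
Cd44: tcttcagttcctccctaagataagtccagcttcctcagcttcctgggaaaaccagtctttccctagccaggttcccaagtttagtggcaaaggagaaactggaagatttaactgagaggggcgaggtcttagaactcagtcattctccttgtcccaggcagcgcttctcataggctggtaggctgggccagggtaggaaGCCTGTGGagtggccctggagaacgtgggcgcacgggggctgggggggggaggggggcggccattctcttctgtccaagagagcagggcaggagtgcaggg
In the Cemip promoter the capitals are a match to the ZNF750 motif CCNNAGGC at bases -152 to -145 and a TATAAA match at -29 to -24. In the Cd44 promoter they are a match to CCNNAGGC on the opposite strand at -51 to -44. CCNNAGGC was found in 5 of the 7 promoters, those of Cemip, Hyal1, Hyal2, Cd44 and Vcan, and in 24.1% of all 32851 promoters of this length. TATAAA was found in 1 of the 7 and in 13.6% of all. The AP-1 motif TGANTCA and the STAT motif TTCNNNGAA were found in Tnfaip6 alone, against 7.81% and 8.30% of all promoters, and the C/EBP motif TTGCNNAA in Has1 alone, against 10.8%. None of the matches overlaps another. A match describes letters and not binding.

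Cd44, the main cell-surface receptor for hyaluronan on fibroblasts, keratinocytes and leukocytes, was about 1.93-fold higher in the knockout means. Cd44 (ENSMUSG00000005087, chromosome 2, 102641486 to 102732011) was 2473, 2249 and 3206 across the controls, against 5889, 3999 and 5407 across the knockouts. All knockout libraries lay above all controls, at 5098 ± 982 against 2643 ± 500.2 (SD, n = 3 each). The fitted difference was 0.94 ± 0.22 on the log2 scale (SE; limma adjusted p = 0.0449). The call ended when any library other than S4 was left out (limma adjusted p = 0.171, 0.119, 0.109, 0.0698 and 0.137 for S2, S3, S5, S6 and S7), with log2 fold changes of 0.83 to 1.11. It was also lost without the filter and without the intensity trend, at 0.0529 and 0.0708, and with a sex term it was kept at 0.0359. Cells other than fibroblasts carry Cd44 as well. Of 7 macrophage markers none was called and 6 had a positive log2 fold change, with a median of 3.10. Their summed level was 1144 to 1373 in the controls and 1410, 1123 and 11906 in S5, S6 and S7, with Csf1r the largest part in each control. Csf1r was 864, 1096 and 455 across the controls, against 266, 173 and 1760 across the knockouts. C1qa, C1qb, C1qc and Mrc1 were higher in each knockout than in each control, C1qa at 26.7, 9.99 and 32.0 against 174, 97.5 and 1394. That of 5 T cell markers, none called, was 5.00 to 280 in the controls, with Trac and Cd3d at 0 in S2 and Cd3g and Trbc2 at 0 in S3, and 58.1, 399 and 651 in the knockouts. The sum of 6 mast cell markers was 40.0 to 410 in the controls and 1276, 4050 and 1279 in S5, S6 and S7. Cd44 was highest in S5, the mast cell sum in S6, and the macrophage and T cell sums in S7. The part of leukocytes in the Cd44 difference was not tested.

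Of the matrix genes, neither Tnfaip6 nor Vcan was called. Tnfaip6 (ENSMUSG00000053475, chromosome 2, 51928021 to 51946699) encodes the inflammation-induced protein that transfers heavy chains of inter-alpha-inhibitor onto hyaluronan. It was 14521, 8583 and 4335 across the controls, against 14712, 13451 and 4015 across the knockouts. The groups covered the same range (log2 fold change 0.19 ± 0.60, limma adjusted p = 0.884), and the value was -0.27 without S4, -0.15 without S5 and -0.083 without S6. Vcan (ENSMUSG00000021614, chromosome 13, 89803431 to 89890629) encodes versican, a large chondroitin sulfate proteoglycan that binds hyaluronan. It was 10134, 8473 and 9665 across the controls, against 18439, 4585 and 8690 across the knockouts. The controls lay close together, and knockout S5 was 4.02 times S6, so no group difference stood out from that spread (log2 fold change -0.058 ± 0.46, limma adjusted p = 0.956). The direction turned without S6, to 0.43, and with a common library total, to 0.26.

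Has1, Has2 and Tnfaip6 ranked the libraries alike in both groups, from S2 through S3 to S4 in the controls and from S5 through S6 to S7 in the knockouts. The highest control value was 2.62, 2.12 and 3.35 times the lowest for Has1, Has2 and Tnfaip6, and the highest knockout value was 8.43, 3.68 and 3.66 times the lowest. The other 7 genes did not share this order in both groups. S4 and S7, the lowest libraries of each group for these genes, had the highest summed keratinocyte markers of their groups, 24884 and 22993, against 295 to 5480 in the other 4 libraries. Fibroblast markers, summed over 7 genes, were lowest in the same libraries, at 162946 in S4 and 149543 in S7, against 300558 and 381450 in S2 and S3 and 208540 and 174777 in S5 and S6. Dcn was the largest part of this sum in each library. Dcn, Lum, Pdgfrb and Twist2 were each lowest in S4 and S7 of their groups. Pdgfra, nearly level across the controls, and Thy1 were lowest in S4 and S6, and Dpt was lowest in S3 and S7. In bulk RNA, fewer cells of a type and less RNA per cell cannot be told apart, and the part of cell makeup in this order was not tested.

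Prg4, the lubricin gene, was near the detection limit in the controls and rose in the knockouts. Prg4 (ENSMUSG00000006014, chromosome 1, 150325163 to 150341917) was 11.5, 11.2 and 14.3 in S2, S3 and S4, which are 9, 9 and 17 estimated reads, with exact 95% Poisson intervals of 5.23 to 21.7, 5.14 to 21.3 and 8.33 to 22.9. It was 943, 1179 and 2439 in S5, S6 and S7. No library of one group came near the other, and S7 held more than the other 2 knockout libraries together. The means were 12.4 ± 1.69 and 1520.4 ± 804 (SD, n = 3 each), a 123-fold ratio, with a log2 fold change of 6.03 ± 0.35 (limma adjusted p = 0.000304). Over the control mean, which rests on few reads, S5, S6 and S7 were 76.4-fold, 95.4-fold and 198-fold, and without S7 the ratio of means was 85.9. Its span shares 524 bases with Tpr on the other strand, and Tpr was 1229 to 1495 across controls and 1432 to 1629 across knockouts. Lubricin is known from cartilage surfaces and synovium, so cartilage markers were read beside it. Of 7 such markers 4 had a row in the table, 0 of these passed the filter, and their summed level was 26.1 to 64.8 across controls and 15.1 to 52.9 across knockouts, with Col2a1 at 1.68 to 6.25 and 1.96 to 6.38. Of 3 tendon markers 0 were called, and their sum was 1403 to 3193 across controls and 654 to 1697 across knockouts. They did not move together. Tnmd was lower in every knockout library than in every control, and Mkx overlapped. Scx, the least abundant, was higher in every knockout library, at 47.0, 32.5 and 58.0 against 59.8, 86.6 and 59.7.

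Other genes of hyaluronan metabolism were taken from 5 lists by function, 40 genes of which 32 had a row and 27 were tested. Of the 27, 2 were called higher and 2 lower, beside 4.12% and 2.59% of all tested genes, and 12 had a positive log2 fold change, beside 51.2% of all tested genes. The transmembrane relative of Cemip and a Link-domain gene rose, and a precursor enzyme and an inter-alpha-inhibitor heavy chain fell. Cemip2, which encodes a cell-surface hyaluronidase, was 352, 246 and 435 across the controls, against 907, 1328 and 982 across the knockouts. Its groups did not overlap (log2 fold change 1.63 ± 0.25 SE, limma adjusted p = 0.0110), and the call was lost without S2 or S6, at adjusted p-values of 0.0556 and 0.0569. Hyal3, a further hyaluronidase gene, and Gusb, a lysosomal glucuronidase gene, were not called.

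Susd5, whose product carries a hyaluronan-binding Link domain, rose most among the listed genes. It was 24.1, 15.0 and 12.6 across the controls, against 564, 349 and 562 across the knockouts, a log2 fold change of 4.24 ± 0.29 (limma adjusted p = 0.000601). The groups were far apart, and the call was kept in all 23 alternative fits. Of the controls S2 alone passed the filter on low values. Without S2, or with a filter of 5 per 1000000, Susd5 was thus tested through the knockout libraries alone. A gene kept in this way had to differ between the groups, so those kept calls are no independent support. Of the other tested receptors, Lyve1 and Stab1, genes of lymphatic vessels and macrophages, and Layn and Hmmr were not called. Lyve1 was 11.4 to 33.6 in the controls and 41.2, 62.9 and 842 in S5, S6 and S7 (log2 fold change 2.39 ± 0.99, limma adjusted p = 0.202), so S7 carried most of it. S7 also had the highest sum of macrophage markers. The sum of 4 lymphatic endothelial markers, 0 called, was 140 to 294 in the controls and 207, 316 and 559 in S5, S6 and S7. The cells that carried Lyve1 were not tested.

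Precursor enzymes make the nucleotide sugars from which hyaluronan is built. Of 9 tested, Ugdh was called lower and 8 had a negative log2 fold change, the median being -0.42. Ugdh, whose enzyme makes UDP-glucuronic acid, was 3709, 3214 and 3599 across the controls, against 2462, 1824 and 1779 across the knockouts (log2 fold change -0.81 ± 0.18, limma adjusted p = 0.0399). All knockout libraries lay below all controls. Omitting any single library other than S5 ended the call, at adjusted p-values of 0.157, 0.0744 and 0.0624 (each control) and of 0.150 and 0.133 (S6 and S7). With a sex term its adjusted p was 0.0582. With a common library total Ugdh was -0.48 with an adjusted p of 0.239, and 5 of the 9 genes were negative. Gfpt1, the entry enzyme of hexosamine synthesis, was 3329, 4107 and 2090 against 1888, 1233 and 962 (log2 fold change -1.22 ± 0.32, limma adjusted p = 0.0679).

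The inter-alpha-inhibitor heavy chain gene Itih2 was low, at 39.4, 33.7 and 42.9 across the controls, against 11.8, 6.38 and 4.77 across the knockouts (log2 fold change -1.53 ± 0.31, limma adjusted p = 0.0323). It passed the filter on low values through the controls alone, so a gene kept in this way had to differ between the groups. The groups did not overlap, but the call was lost without S5, S6 or S7 (limma adjusted p = 0.0518, 0.119 and 0.0962), although without S5 it was kept at 0.0433 where the filter asked for 2 libraries. With that filter it was also lost without S2, S3 or S4 (0.135, 0.0759 and 0.0711), and it was lost with a common library total (0.0693) and with a sex term (0.0550). The far more abundant Itih5 was 5300 to 12042 across controls and 2131 to 8064 across knockouts and was not called (limma adjusted p = 0.205). In the list of proteoglycan, link protein and other hyaluronan-binding protein genes 0 of 5 were called, while a common library total called Hapln1. Habp4 was 362 ± 77.2 and 378 ± 16.5, and the cartilage proteoglycan gene Acan was 205 ± 124 and 105 ± 85.6 (SD, n = 3 each; limma adjusted p = 0.836 and 0.394).

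**Figure D4:**
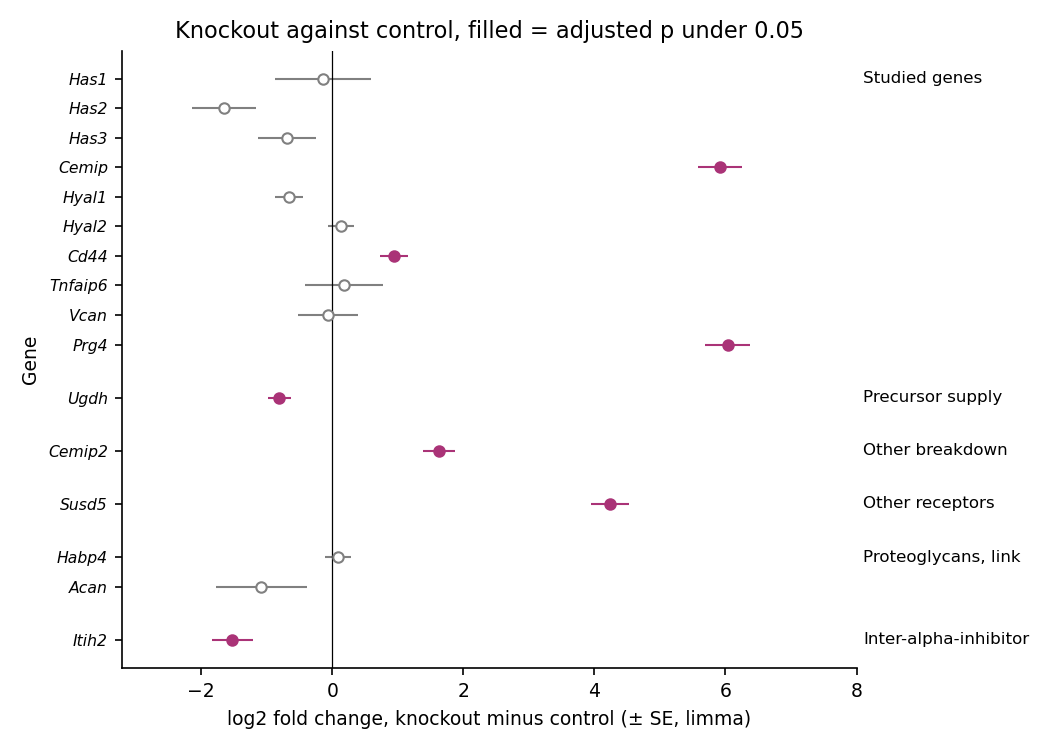
Log2 fold change of knockout against control with its SE from the limma fit (horizontal axis) for the 10 genes and, from the 5 functional lists, the called genes or the 2 most abundant where none was called (vertical axis). Filled points passed an adjusted p of 0.05: Cemip at 5.92, Prg4 at 6.03, Cd44 at 0.94, Susd5 at 4.24 and Cemip2 at 1.63 are higher, and Ugdh at -0.81 and Itih2 at -1.53 are lower.

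Fibroblast markers did not move as a block. Of 7 such markers 2, Pdgfra and Pdgfrb, were called higher and 0 lower, and their median log2 fold change was -0.017. The most abundant, Dcn and Lum, were not called and had negative log2 fold changes of -0.99 and -0.96 (limma adjusted p = 0.300 and 0.261). Pdgfra, the PDGF receptor that marks fibroblasts, was 10932, 11482 and 10886 across the controls, against 29489, 23877 and 25506 across the knockouts (log2 fold change 1.24 ± 0.21, limma adjusted p = 0.0165). Relative to Pdgfra, a ratio chosen after its values were seen, Cemip went from 1.01 ± 0.595 to 47.0 ± 19.1 per 1000 and Prg4 from 1.12 ± 0.176 to 59.0 ± 32.9 (SD, n = 3 each). Cd44 was 239 ± 50.5 and 193 ± 23.0 per 1000, with overlapping groups, so the groups were not separate on this scale. Has2 was 198, 152 and 94.2 per 1000 across the controls, against 36.3, 16.1 and 11.4 across the knockouts, and these groups did not overlap. Has3, Hyal1, Hyal2 and Vcan were likewise lower in every knockout library per Pdgfra, which follows in part from the higher Pdgfra itself. Per 1000 of Dcn, a second ratio chosen after its values were seen, Cd44 was 12.4, 9.52 and 33.2 across the controls, against 59.7, 46.5 and 80.0 across the knockouts, and the groups did not overlap. Has2 was 10.9, 7.37 and 10.6 against 10.9, 4.46 and 4.31 per 1000 of Dcn, and the groups overlapped. Hyal2 was 1.26, 1.43 and 3.07 per 1000 of Dcn across the controls, against 3.16, 3.29 and 5.58 across the knockouts. It was thus higher in every knockout library per Dcn, though lower per Pdgfra. Has3, Hyal1 and Vcan overlapped between the groups per Dcn. The readings of Cd44, Has2, Has3, Hyal1, Hyal2 and Vcan thus depended on the fibroblast marker taken. Cemip and Prg4 were higher in each knockout library by either.

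**Figure D5:**
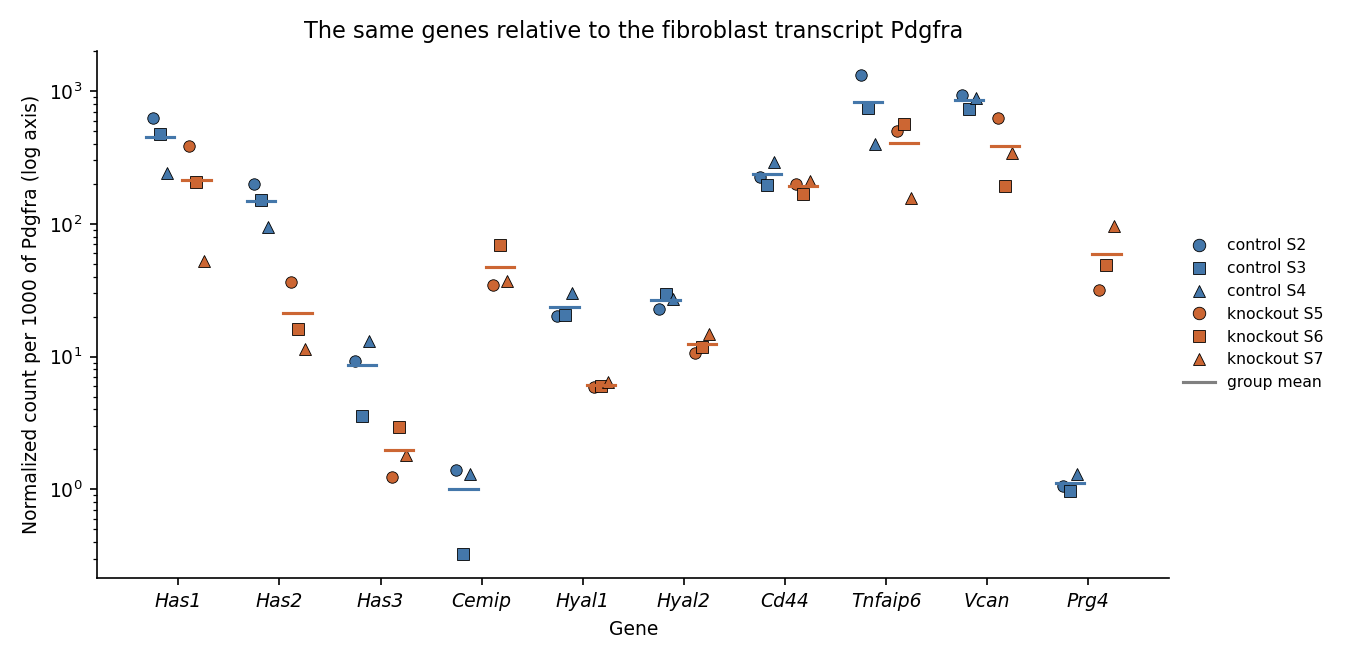
Normalized counts of the 10 genes per 1000 of Pdgfra (log axis) in each library, controls in blue and knockouts in orange, with group means as bars. Cemip (47.0 against 1.01) and Prg4 (59.0 against 1.12) stay higher in the knockouts, Has2 (21.3 against 148) lies lower, and Cd44 overlaps.

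Of 6 mast cell markers, 3 were called higher, beside 4.12% of all tested genes, and Tpsb2 was the third of them with Tpsab1 and Fcer1a. Their summed level was 40.0 to 410 across controls and 1276 to 4050 across knockouts, with Tpsab1 and Fcer1a at 0 in all controls, so that these passed the filter through the knockouts alone. For 5 neutrophil markers, of which 1 passed the filter and 0 were called, the sum was 0 to 19.3 and 57.9 to 661, with S100a9 and Retnlg at 0 in all controls. The sum of 4 fat cell markers, 0 of the 2 tested called, was 3.81 to 58.7 and 68.6 to 2127. Blood endothelial markers, 0 of 5 called, summed to 340 to 787 and 591 to 5924. The mast cell sum was highest in S6, as Cemip was, whereas the neutrophil, fat and endothelial sums were highest in S7. Prg4 was highest in S7 as well, and it was also far above the controls in S5. The endothelial sum of S5, 591, lay within the control range. The mast cell, neutrophil and fat cell sums of S5, 1276, 57.9 and 68.6, lay above the control ranges. Which cells carried Cemip and Prg4 was not tested.

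The genes whose profiles were most like those of Cemip and Prg4 were found by the root mean square difference of mean-centred log2 profiles over the 6 libraries, among 13423 tested genes with names. The closest to Cemip were Fgf23, a phosphate-regulating hormone gene (difference 0.34), Spp1, the osteopontin gene (0.46), and Gpr176, an orphan receptor gene (0.53). Fgf23 was 5.08, 5.00 and 7.57 across the controls, against 949, 950 and 727 across the knockouts. The closest to Prg4 were Mmp9, a gelatinase gene (0.25), Spp1 (0.36) and Lcn2, a lipocalin gene (0.39). Mmp9 was 10.2, 15.0 and 18.5 across the controls, against 952, 1007 and 1785 across the knockouts, with its highest value in S7 as for Prg4. Cemip and Prg4 stood at rank 7 in each other's order, at a difference of 0.62. The measure describes likeness over these 6 libraries and is set mostly by the step between the groups, so it does not show likeness within a group. Mmp9 and Lcn2 ranked the knockout libraries as Prg4 did. Fgf23 was lowest in S7, as Cemip was, but it was level in S5 and S6, where Cemip differed. Gpr176 did not share the order of Cemip, and Spp1 shared neither order. Fgf23 and Lcn2, like Cemip and Prg4, passed the filter on low values through the knockout libraries alone.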

How the data were processed

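RNA from sorted mouse skin cells was profiled in 3 control and 3 knockout samples. TopHat2 2.1.0 and Partek 9.0.20.0202 appear, without roles, in the submitters' processing notes. Build, annotation and strand setting were not found in the labels or the file header. The authors deposited one table of normalized counts, read here as a signal: estimated reads divided by a factor for each library. The values themselves show this: 78.7% to 81.2% per library (up to 1000 reads) of them were whole multiples of a step within 0.05, too few for count models. Value columns name the group and carry numbers of their own (UB1 to UB4) that differ from the labels' sample numbers. Gene coordinates are the table's own.

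Values were analysed as log2(value + 9.15), a pseudocount of 0.5 per 1000000 of the mean library total, with limma 3.58.1 in R 4.3.3 (empirical Bayes with intensity trend, 2-sided, Benjamini-Hochberg over all tested genes). Genes needed 1 per 1000000 in at least 3 libraries. The fit was tested on simulated counts with the same scatter setting for all genes and no differences in cell makeup between libraries. That run does not show how the fit behaves under the scatter of these libraries. Alternatives covered pseudocount, filter, scaling, trend and leaving out libraries. The 10 genes and the lists were chosen with earlier results of these data known. Outside the 10, the genes named were called list members, or, in a list with none called, its 2 most abundant, and the 3 genes nearest to Cemip and to Prg4. Zfp750 was named as the targeted gene. Dcn, Lum, Krt5, Pdgfra, Pdgfrb, Thy1, Twist2, Dpt, Csf1r, the C1q genes, Mrc1, Tpsb2, Col2a1, Tnmd, Mkx, Scx, Xist, Ddx3y, Has2os, Naa80, Chtf8, Hapln1, Gfpt1, Itih5, Lyve1, Stab1, Layn, Hmmr, Hyal3, Gusb, Tpr and the single markers at 0 were named after their values were seen. Lengths are merged exons of GENCODE M21, matched by gene ID. Promoters are from RefSeq.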

Additional observations from a re-analysis of the deposited data

How the results depend on the processing

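Cemip and Prg4 kept their direction and call in all 20 alternative fits that tested them (log2 fold change 3.62 to 6.81 and 3.85 to 6.72). Under the main filter both were tested through the knockout libraries alone, and genes kept in this way had to differ between the groups. The kept calls are therefore no independent support. With a knockout library left out, too few libraries remained above the filter for either gene to be tested, so fits with a filter of 2 libraries were added after seeing the data. Cd44 kept its call in 9 of 23. Leaving out a library gave 270 to 1272 genes called of all tested (1070 in the full fit), 0 to 3 of the 10 genes, 1 to 6 of the list genes, and a Has2 share lower in knockouts by -17.9 to -12.5 percentage points (-14.5 in full). The count over all genes moved by over 1.5 times without S6 (270), S2 (306), S7 (435) and S3 (546), and likewise with the filter of 2 libraries (336, 325, 498 and 567).

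Libraries differed in sex: Xist was 16093 in S3 and 22654 in S6 and at most 15.2 in the others, where Ddx3y was 996 to 1370. Within the 4 libraries with Y-linked transcripts, a choice made after seeing the data, 62 genes, 2 of the 10 and 1 list gene were called, and Tnfaip6 (-0.046) and Vcan (0.35) changed sign. With a sex term 2 list genes were called, and Ugdh (limma adjusted p = 0.0582) and Itih2 (0.0550) were not. A common library total turned Has1 to 0.19 and Vcan to 0.26. Leaving out a library turned Has1 (-0.85 to 0.69), Tnfaip6 (-0.27 to 0.79), Vcan (-0.57 to 0.43) and Habp4 (-0.080 to 0.23). The causes were not tested. The numbers in the column names (UB2 to UB4 for the controls, UB1 to UB3 for the knockouts) are not the labels' sample numbers, and the planned block on the labels' numbers could not be fitted. The column numbers UB2 (S2, S6) and UB3 (S3, S7) occur in both groups, and deviations from the group means correlated at 0.251 and -0.223 over genes. Pairings of libraries with unlike numbers gave -0.306 to 0.407. These correlations cannot show whether libraries with the same number were paired. A replicate block on these 4 libraries, added after seeing the data, called 1632 of all genes, 3 of the 10 (Cemip, Prg4 and Has2) and 8 list genes, against 1657, 4 and 7 without the block. Cd44 was at an adjusted p of 0.0586 with the block and 0.0469 without it, Tnfaip6 turned to -0.60 and Habp4 to -0.069 in both fits. Count models were not run. Control values of Cemip and Prg4 rest on 3 to 17 reads, which limits their fold changes.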
